A study of Mus musculus with 6 samples.

Results

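The chemokine receptor genes Ccr1, Ccr2, Ccr3, Ccr7, Ccr9, Cx3cr1, Cxcr2, Cxcr3 and Cxcr4, which blood progenitors or their early descendants are known to use, were examined in sorted multipotent progenitors. They were chosen by gene symbol, and each of the 9 had 1 array feature of its own, out of 19938 genes with such a feature. The data were log2 expression values from 6 whole-transcript mouse arrays of bone marrow cells sorted as lineage-negative and positive for Sca-1, c-Kit, CD34 and a receptor given there as Flt2. Wild-type arrays (WT, intact latexin gene and protein, n = 3) were compared with arrays labelled Lxn-/- (exons 2 to 4 of latexin deleted and no latexin protein, n = 3). All mice were C57BL/6, described as female and 8 to 12 weeks old, and the labels give no treatment beyond the genotype. Each array held RNA of about 100000 cells pooled from 10 to 20 mice, so the spread between arrays is a spread between pools. The comparison asks how receptor expression differs in progenitors that lack latexin, an inhibitor of carboxypeptidases.

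Chemokine receptors are G protein-coupled receptors of the cell surface that steer cells along gradients of small secreted chemokines. Cxcr4, the receptor of Cxcl12, holds stem and progenitor cells in the marrow. Ccr2, Ccr1, Cx3cr1 and Cxcr2 are best known from monocytes and neutrophils, and Ccr3 from eosinophils and basophils. Ccr9 guides lymphoid progenitors to the thymus, Ccr7 guides lymphocytes and dendritic cells to lymph nodes, and Cxcr3 guides activated T cells and natural killer cells.

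Promoter letters are shown for 4 of the genes, so that Ccr1 and Cxcr2, with higher means in the Lxn-/- arrays, can be read beside Cxcr3, with a lower mean, and Cxcr4, the niche receptor. Each window is the 250 bases before the RefSeq start in build GRCm38.p6, printed 5′ to 3′ on the gene's strand. The Ccr1 window is chr9:123968693-123968942 on the minus strand and the Cxcr2 window is chr1:74153744-74153993 on the plus strand. The Cxcr3 window is chrX:101734148-101734397 on the minus strand and the Cxcr4 window is chr1:128592300-128592549 on the minus strand. Capitals mark the PU.1 core GAGGAA in Ccr1, Cxcr2 and Cxcr3, and the GC box GGGCGG, the TATA box TATAAA and the NRF1 motif in Cxcr4, each searched on both strands.
Ccr1 promoter: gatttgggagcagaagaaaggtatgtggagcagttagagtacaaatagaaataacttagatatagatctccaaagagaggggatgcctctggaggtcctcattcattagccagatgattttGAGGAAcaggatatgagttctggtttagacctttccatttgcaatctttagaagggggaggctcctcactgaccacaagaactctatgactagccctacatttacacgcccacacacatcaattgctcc
Cxcr2 promoter: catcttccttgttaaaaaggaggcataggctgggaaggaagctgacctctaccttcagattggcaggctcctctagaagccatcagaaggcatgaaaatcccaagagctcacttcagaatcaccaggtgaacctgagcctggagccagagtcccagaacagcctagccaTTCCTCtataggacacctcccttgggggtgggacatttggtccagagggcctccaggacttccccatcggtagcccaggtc
Cxcr3 promoter: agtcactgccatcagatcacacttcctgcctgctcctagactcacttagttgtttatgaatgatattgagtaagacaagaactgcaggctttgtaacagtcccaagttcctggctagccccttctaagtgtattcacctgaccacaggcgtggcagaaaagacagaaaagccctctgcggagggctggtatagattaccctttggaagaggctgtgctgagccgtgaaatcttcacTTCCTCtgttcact
Cxcr4 promoter: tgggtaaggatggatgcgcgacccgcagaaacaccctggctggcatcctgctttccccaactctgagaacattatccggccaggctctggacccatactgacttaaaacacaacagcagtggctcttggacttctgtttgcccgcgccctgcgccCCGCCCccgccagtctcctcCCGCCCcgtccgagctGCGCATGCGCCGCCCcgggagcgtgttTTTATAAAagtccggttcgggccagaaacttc
The GAGGAA core began 129 bases before the start in Ccr1, 81 in Cxcr2 and 14 in Cxcr3, in Cxcr2 and Cxcr3 as its reverse complement TTCCTC. It was found in 4 of the 8 receptor genes that the promoter table holds (Ccr3 is the other) and in 23.4% of 32536 promoter windows of that length. Ccr7 is the gene the table does not hold. The NRF1 motif of Cxcr4 began 59 bases before the start and occurs in 0.784% of windows. The 3 GC boxes of Cxcr4, the last of which overlaps the NRF1 motif, belong to a motif held by 33.0% of windows, and TATAAA, matched on both strands in overlapping letters of Cxcr4, is held by 12.3%. Cxcr4 had 19 CpG dinucleotides in its window, against 1 each in Ccr1 and Cxcr2, 3 in Cxcr3 and a median of 6 over all windows. Of the other motifs searched, AGATAA (9.97% of windows) was found in Ccr2 and Ccr3, TGACTCA (4.45%) in Ccr3 and TGATAA (7.79%) in 0 of the 8 genes. The loose E-box CANNTG (66.2%), not capitalised, was found in 7 of the 8 genes, all but Cxcr4. The windows of Ccr2 and Ccr3 lie inside the span of their own RefSeq genes and are not printed. A match describes letters only, since no binding was measured.

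The arrays have to be read against their labels first. Lxn was 8.56, 8.70 and 8.58 in the WT arrays and 8.03, 8.53 and 8.61 in Lxn-/- arrays 1, 2 and 3 (log2 change -0.22, SE 0.15, limma adjusted p 0.459), and the position of its probes relative to the deleted exons is unknown here, so Lxn does not check the labels. The Y-linked gene Eif2s3y was 8.57 and 9.36 in Lxn-/- arrays 1 and 3, against 3.83 in Lxn-/- array 2 and 3.68 to 3.97 in WT, while the labels describe all donors as female. Of 6 check genes, Lxn and sex-linked genes, 5 were measured, 3 with higher and 2 with lower means and changes from -4.56 to 3.41. The 2 lower were Lxn and the X-linked gene Xist, the latter at -4.56. The median of the 5 deviations from the WT mean was 2.7, -0.08 and 3.4 in Lxn-/- arrays 1, 2 and 3. As the genes changed in opposite directions, this median does not describe a shift shared by all of them. The part of donor sex in the differences between the groups was not tested. Receptor results are therefore also given for arrays 1 and 3 and for array 2 apart. Of the markers of the sort, Kit, Flt3 and Cd34 read 11.48 to 13.48 on all 6 arrays, and Ly6a has no feature named for it alone. Kit was 11.48 in Lxn-/- array 1 and 12.05 to 12.19 on the others. Features of low level also tended to be lower in the Lxn-/- arrays: the median change was -0.11 to -0.15 in the 5 lower of the equal-sized bins of mean level and 0.07 to 0.09 in the 4 upper ones. Changes below are Lxn-/- minus WT on the log2 scale with their standard error (SE), group levels are means ± SD with n = 3, and every p comes from limma, adjusted over all 23410 tested features where it is called adjusted.

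No receptor passed the threshold of an adjusted p of 0.05 in limma, and 0 of 23410 features did (0.0% called, smallest adjusted p 0.340). At an unadjusted p under 0.05 there were 4 of the 9 receptors, 2 higher in the Lxn-/- arrays (Ccr2 and Cxcr2) and 2 lower (Ccr3 and Cxcr3). The same limit was reached by 14.3% of all tested features, 5.06% higher and 9.23% lower. The groups did not overlap in 4 receptors, of which Ccr2 was higher and Ccr3, Ccr7 and Cxcr3 were lower, against 21.6% of all features (8.54% higher and 13.0% lower). Over the 9 genes 5 means were higher and 4 lower, with changes from -0.39 to 0.75 and a median of 0.16, beside a median of -0.04 over all features. That median varies with level. It was 0.07 in the bins of Ccr2, Ccr7, Ccr9, Cx3cr1 and Cxcr4 and -0.01 in that of Cxcr2, and it is given below for Ccr1, Ccr3 and Cxcr3. Each of the 9 kept its direction in every alternative setting that gave it a value, though some settings could not alter the change itself. Of the features with an unadjusted p under 0.05, 35.4% were higher, and 70.0% were when each array was centred on its median, where the receptors counted were Ccr1, Ccr2 and Cxcr2. Without Lxn-/- array 2 the unadjusted count of receptors was 2 (Ccr2 and Ccr3, with 11.3% of all features), and without Lxn-/- array 3 it was 2 (Ccr2 and Ccr9, with 6.95%). With array 2 alone against WT it was 4 (Ccr2, Ccr9, Cxcr2 and Cxcr4, with 12.8%), the lone array being assumed to vary like the WT arrays. Bulk RNA cannot tell fewer cells of a type from less RNA per cell, which holds for every gene below.

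**Figure D1:**
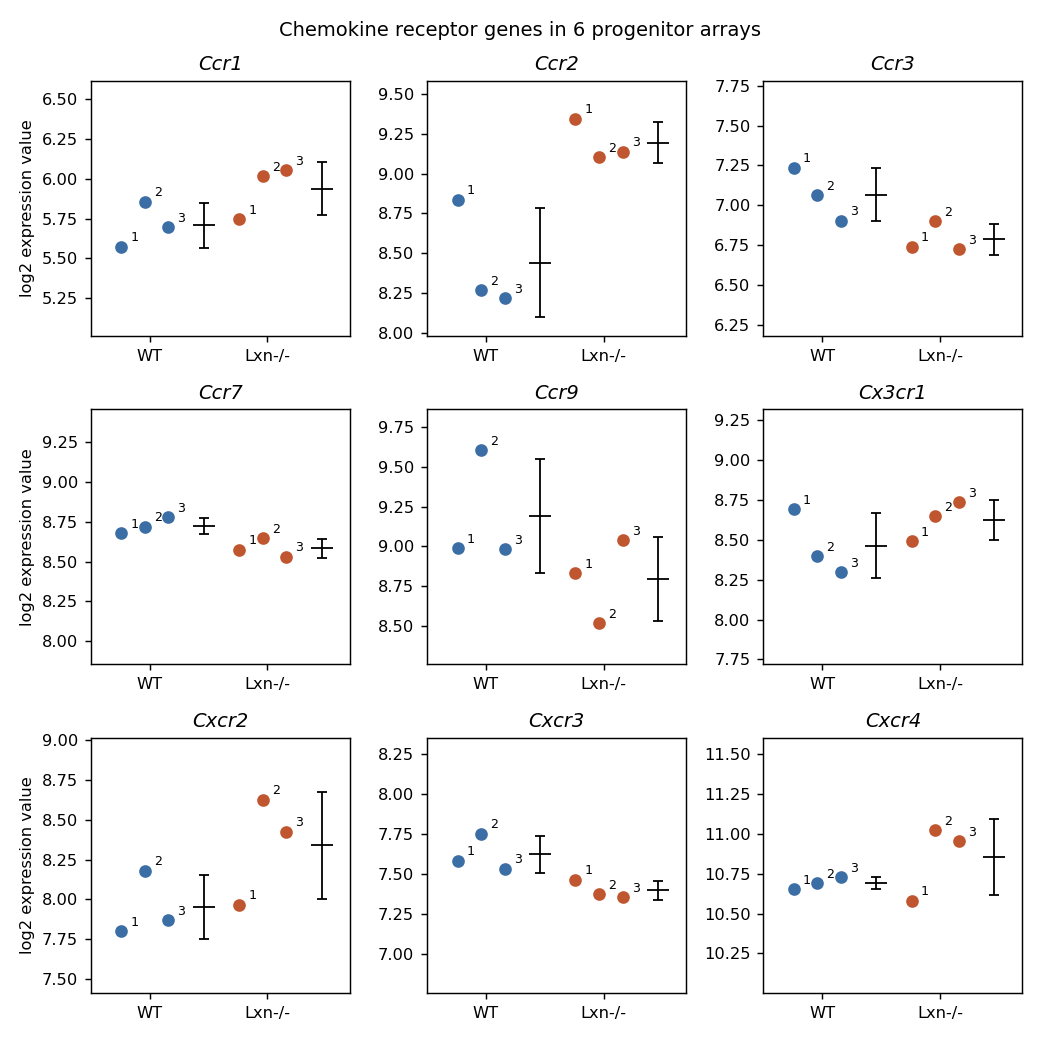
Log2 expression values of the 9 chemokine receptor genes in each array, with WT arrays in blue and Lxn-/- arrays in orange, numbered by replicate, and the group mean ± SD (n = 3) in black; every panel spans the same number of log2 units. All 3 Lxn-/- values lie above the WT values for Ccr2 and below them for Ccr3, Ccr7 and Cxcr3, while the groups overlap in the other 5 panels.

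Ccr2, the receptor of Ccl2 and Ccl7 by which monocytes leave the marrow, had the largest change of the 9. It was 8.84, 8.27 and 8.22 in the WT arrays and 9.34, 9.10 and 9.14 in Lxn-/- arrays 1, 2 and 3 (feature 10590631). The lowest Lxn-/- value lay 0.27 above the highest WT value, and WT array 1 was the WT array nearest to the Lxn-/- values. The means were 8.44 ± 0.34 and 9.19 ± 0.13, a change of 0.75 (SE 0.16, 95% interval 0.39 to 1.12), which is 1.69-fold. Its unadjusted p was 0.00125 and its adjusted p 0.340, so it did not pass. The change was 0.80 (SE 0.18, adjusted p 0.116) with Lxn-/- arrays 1 and 3 and 0.66 (SE 0.23, adjusted p 0.334) with array 2 alone, so it was of like size in the arrays with and without Y-linked signal. Leaving out each array in turn gave 0.64 to 0.95, the highest without WT array 1.

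The ligands of Ccr2 had lower means. Ccl7, a monocyte chemoattractant, was 7.55, 7.43 and 7.35 in WT and 7.16, 7.18 and 7.04 in the Lxn-/- arrays (-0.32, SE 0.09, adjusted p 0.340), with no overlap of the groups. Ccl2, the main ligand, was 6.96, 6.92 and 6.86 in WT and 6.82, 6.33 and 6.85 in the Lxn-/- arrays, all below WT, arrays 1 and 3 narrowly and array 2 by more (-0.24, SE 0.14, adjusted p 0.402). Ccl12, a further mouse ligand of Ccr2, had a change of -0.30 (SE 0.10, adjusted p 0.340). All 3 lie in the bins of level where the median of all features was also below 0.

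Some genes of monocytes and macrophages were higher beside Ccr2 and others were not. Of 11 listed markers 9 were measured, with 5 higher and 4 lower means and a median change of 0.15, which was 0.00 without Lxn-/- array 3 and 0.32 without array 2. At an unadjusted p under 0.05, 3 were higher, all without overlap of the groups and each with an adjusted p of 0.340. They were Csf1r, the receptor of the macrophage growth factor (0.50, SE 0.14), Ms4a6c (0.56, SE 0.18) and the lysosomal protein gene Cd68 (0.32, SE 0.12). Over all features 5.06% were higher at that limit and 8.54% were higher without overlap. The lowest Lxn-/- value lay 0.05 above the highest WT value in Csf1r, 0.02 in Ms4a6c and 0.11 in Cd68. F13a1, a coagulation factor subunit gene of monocytes, was 10.49, 9.80 and 9.52 in WT and 10.16, 10.42 and 10.50 in the Lxn-/- arrays, and it shared with Ccr2 its highest WT value in WT array 1. The mature macrophage and monocyte genes Adgre1 (-0.23, SE 0.15), Cd14 (-0.13, SE 0.09) and Fcgr1 (-0.05, SE 0.09) had lower means. These lie in a bin of level where the median of all features was -0.15. Csf1r, Ms4a6c and Cd68 lie in bins where it was 0.07 to 0.09. Lyz2, with a WT mean of 11.70, also had a lower mean (-0.04, SE 0.18). The summed log2 level of the 9 markers was 79.85 to 81.88 in WT and 81.19 to 83.43 in the Lxn-/- arrays, so the ranges overlapped. The part of these cells in the Ccr2 difference was not tested.

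**Figure D2:**
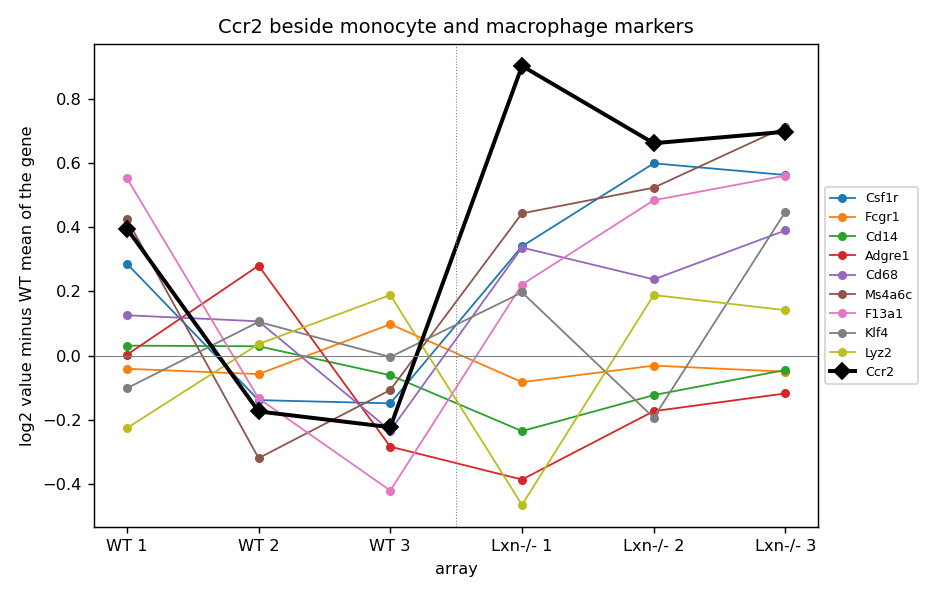
Log2 value minus the gene's WT mean in each of the 6 arrays for Ccr2 (black diamonds) and for the 9 measured monocyte and macrophage markers (coloured points); lines join the values of 1 gene and imply no order of arrays. Csf1r, Cd68 and Ms4a6c lie above all their WT values in the 3 Lxn-/- arrays, as does Ccr2, while Adgre1, Cd14 and Fcgr1 do not.

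Genes of similar pattern to Ccr2 were ranked by the root mean square difference of centred log2 values over the 6 arrays, among 17010 other named genes. Ly86, which encodes a partner of a Toll-like receptor relative on B cells and myeloid cells, came closest with a difference of 0.07, where the spread of Ccr2 itself was 0.43. Ly86 was 10.86, 10.19 and 10.10 in WT and 11.33, 10.92 and 11.09 in the Lxn-/- arrays, a change of 0.73 (SE 0.20, adjusted p 0.340). Its likeness to Ccr2 array by array, including the high WT array 1, is what the ranking selects for and is no separate observation. The mitochondrial enzyme gene Dglucy (0.16) and the cochaperone gene Chordc1 (0.17) came next at larger distances. These distances describe arrays that also share a group difference.

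Cxcr2, which neutrophils use to follow Cxcl1 and Cxcl2, had a higher mean in the Lxn-/- arrays with overlapping groups. It was 7.80, 8.18 and 7.87 in WT and 7.97, 8.62 and 8.43 in Lxn-/- arrays 1, 2 and 3 (feature 10347291). Arrays 2 and 3 lay above all WT values, and array 1 lay among them. The means were 7.95 ± 0.20 and 8.34 ± 0.34, a change of 0.39 (SE 0.17) with an unadjusted p of 0.0495 and an adjusted p of 0.349. The change was 0.25 (SE 0.16) with arrays 1 and 3 and 0.67 (SE 0.17) with array 2 alone. It reached 0.58 without Lxn-/- array 1. Of the arrays with Y-linked signal, array 3 lay above WT and array 1 did not. Cxcl2 had a WT mean of 8.74 ± 0.23 and was 9.44, 8.28 and 9.57 in the Lxn-/- arrays (0.36, SE 0.30, adjusted p 0.533), high in arrays 1 and 3 and low in array 2, the reverse of the order of Cxcr2 in arrays 1 and 2. Cxcl1 had a change of -0.18 (SE 0.12).

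Neutrophil genes were set beside Cxcr2. The nearest gene in pattern, looked up after the values were seen, was the granule gene Ngp (difference 0.09, where the spread of Cxcr2 was 0.30), at 11.44, 11.85 and 11.64 in WT and 11.54, 12.11 and 11.96 in the Lxn-/- arrays (0.23, SE 0.16, adjusted p 0.474). Of the 10 neutrophil markers, all measured, 8 had higher and 2 lower means (6 to 10 higher as each array was left out), and 0 reached an unadjusted p under 0.05 in limma or separated the groups. Their summed log2 level was 104.01 to 109.38 in WT and 105.20 to 108.97 in the Lxn-/- arrays, the second range lying inside the first. Their part in the Cxcr2 values was not tested.

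Ccr1, a receptor of Ccl3, Ccl6 and Ccl9 on myeloid cells, had low deposited values (feature 10598004). It was 5.57, 5.86 and 5.70 in WT and 5.75, 6.01 and 6.05 in the Lxn-/- arrays. Arrays 2 and 3 lay above all WT values and array 1 did not. The change was 0.23 (SE 0.12, adjusted p 0.374), where the median of all features in the same bin of level was -0.14. It was 0.19 (SE 0.14) with arrays 1 and 3 and 0.31 (SE 0.14) with array 2 alone. After a further quantile normalization it was 0.36 (SE 0.14, adjusted p 0.629). Its ligand genes did not separate the groups: Ccl3, a macrophage inflammatory protein, was 13.23 to 13.39 in WT and 13.05 to 13.61 in the Lxn-/- arrays (-0.06, SE 0.14), Ccl9 differed by 0.08 (SE 0.23) and Ccl6 by -0.18 (SE 0.18).

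Cx3cr1, the fractalkine receptor of patrolling monocytes and of dendritic cell progenitors, was 8.69, 8.40 and 8.30 in WT and 8.49, 8.65 and 8.74 in the Lxn-/- arrays (feature 10597743). The groups overlapped, and WT array 1 lay within the range of the Lxn-/- arrays. The change was 0.16 (SE 0.12, 95% interval -0.11 to 0.44, adjusted p 0.497), 0.28 without WT array 1 and 0.08 without WT array 3. It was 0.15 (SE 0.14) with Lxn-/- arrays 1 and 3 and 0.18 (SE 0.17) with array 2 alone. Its ligand gene Cx3cl1 was 7.49, 7.90 and 7.63 in WT and 7.44, 7.43 and 7.43 in the Lxn-/- arrays, all below WT (-0.24, SE 0.11, adjusted p 0.359). The median of all features in the bin of level of Cx3cl1 was -0.12.

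Dendritic cell markers were measured beside these receptors, since Ccr2 and Cx3cr1 also mark dendritic and monocyte progenitors. All 8 had a feature, with 5 higher and 3 lower means. At an unadjusted p under 0.05, 3 were higher and 1 lower, beside 5.06% and 9.23% of all features. The groups did not overlap in 3, all higher, as in 8.54% of all features. The 4 markers above the median level all had higher means. The 3 lower ones thus lie in the lower bins, where the median change of all features was -0.11 to -0.15. Irf8, the transcription factor of monocyte and dendritic cell progenitors, was 11.26, 10.97 and 10.88 in WT and 11.50, 11.45 and 11.42 in the Lxn-/- arrays (0.42, SE 0.11, adjusted p 0.340), with no overlap. Siglech, a marker of plasmacytoid dendritic cells, had a change of -0.02 (SE 0.09), and Zbtb46, of conventional dendritic cells, had a lower mean (-0.34, SE 0.14); Xcr1 is on this list and on that of the other receptors. The summed log2 level was 68.06 to 68.97 in WT and 69.38 to 69.68 in the Lxn-/- arrays, ranges that did not overlap. Their part in the receptor values was not tested.

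Ccr3, the eotaxin receptor of eosinophils, basophils and mast cells, was lower in all 3 Lxn-/- arrays by a narrow margin. It was 7.24, 7.06 and 6.90 in WT and 6.74, 6.90 and 6.72 in the Lxn-/- arrays (feature 10590628). Lxn-/- array 2 and WT array 3 differed by only 0.005, and the other Lxn-/- arrays lay further below. The means were 7.07 ± 0.17 and 6.79 ± 0.10, a change of -0.28 (SE 0.11, 95% interval -0.53 to -0.03, adjusted p 0.340), where the median of features in the same bin of level was -0.15. With arrays 1 and 3 the change was -0.34 (SE 0.13) and with array 2 alone -0.17 (SE 0.15). A further quantile normalization gave -0.16 (SE 0.11, adjusted p 0.752).

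Granule and receptor genes of eosinophils, basophils and mast cells had lower means beside Ccr3. All 9 markers were measured and all 9 means were lower, with a median change of -0.42 that was -0.39 after quantile normalization and -0.36 after centring, with 1 marker higher in each. Without Lxn-/- array 1 it was -0.20, with 2 markers higher. The basophil protease gene Prss34 was 11.11, 11.06 and 10.98 in WT and 9.07, 10.51 and 10.53 in the Lxn-/- arrays (-1.02, SE 0.33, adjusted p 0.340), and Mcpt8, another, differed by -0.72 (SE 0.25). The eosinophil genes Epx (-0.18, SE 0.29) and Il5ra (5.67 to 5.95 in WT and 5.74 to 5.90 in the Lxn-/- arrays) overlapped between the groups. The summed log2 level was 79.85 to 81.94 in WT and 71.55, 78.84 and 79.86 in Lxn-/- arrays 1, 2 and 3. Array 1 was thus far below the rest for these markers, while its Ccr3 value of 6.74 lay next to the 6.72 of array 3. Their part in the Ccr3 difference was not tested. The eotaxin gene Ccl11 was 7.49, 7.63 and 7.62 in WT and 7.37, 7.29 and 7.06 in the Lxn-/- arrays, a difference without overlap (-0.34, SE 0.10, adjusted p 0.340). The median of all features in the bin of level of Ccl11 was -0.12.

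The genes nearest in pattern to Ccr3 were Omd, Il1rapl2 and Ces1f (differences 0.04 to 0.05, where the spread of Ccr3 was 0.18). Their array values lay between 4.29 and 5.72.

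Ccr9, the receptor that takes progenitors to the thymus in answer to Ccl25, had the lowest change of the 9 and overlapping groups. It was 8.99, 9.60 and 8.98 in WT and 8.83, 8.52 and 9.04 in the Lxn-/- arrays (feature 10590620). WT array 2 stood above the other WT arrays, and Lxn-/- array 3 lay above WT arrays 1 and 3. The change of -0.39 (SE 0.19, 95% interval -0.82 to 0.03, adjusted p 0.362) was -0.19 (SE 0.15) without WT array 2. It was -0.26 (SE 0.18) with Lxn-/- arrays 1 and 3 and -0.67 (SE 0.23) with array 2 alone. Ccl25 itself was 7.85 to 8.07 in WT and 7.92 to 7.99 in the Lxn-/- arrays (0.01, SE 0.09).

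Early lymphoid genes were set beside Ccr9. Of 6 lymphoid progenitor markers, all measured, 4 had higher and 2 lower means and 0 reached an unadjusted p under 0.05 in limma. Their changes ran from -0.24 to 0.36. The groups did not overlap in 1 marker, which was higher, as were 8.54% of all features. Dntt, the template-free polymerase of early lymphoid cells, was 12.13, 12.00 and 12.34 in WT and 12.29, 12.49 and 12.31 in the Lxn-/- arrays (0.20, SE 0.11), and Il7r, the receptor of a lymphoid growth factor, differed by 0.25 (SE 0.15). The summed log2 level was 55.86 to 56.63 in WT and 55.88 to 57.67 in the Lxn-/- arrays.

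Ccr7, which leads lymphocytes and dendritic cells towards Ccl19 and Ccl21, differed little between the groups. It was 8.68, 8.72 and 8.78 in WT and 8.57, 8.65 and 8.53 in the Lxn-/- arrays (feature 10390763). All Lxn-/- values lay below WT, by 0.03 at the closest. The change was -0.14 (SE 0.08, 95% interval -0.33 to 0.05, adjusted p 0.421), a 1.10-fold difference of means, and leaving out each array gave -0.17 to -0.11. It was -0.17 (SE 0.11) with Lxn-/- arrays 1 and 3 and -0.08 (SE 0.12) with array 2 alone. Ccl19 differed by -0.21 (SE 0.10), and its groups overlapped.

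Cxcr3, the receptor of the interferon-induced chemokines Cxcl9 and Cxcl10, is the X-linked gene of the 9. It was 7.58, 7.75 and 7.53 in WT and 7.46, 7.37 and 7.35 in the Lxn-/- arrays (feature 10606058), all below WT. The change was -0.23 (SE 0.09, 95% interval -0.44 to -0.02, unadjusted p 0.0381, adjusted p 0.341), and the median of features in the same bin of level was -0.12. It was -0.22 (SE 0.12) with the arrays of Y-linked signal and -0.25 (SE 0.14) with array 2 alone. A further quantile normalization gave -0.14 (SE 0.08, adjusted p 0.701). Cxcl9 was lower with overlap (-0.27, SE 0.12), and Cxcl10 was 7.76 to 8.14 in WT and 7.92, 8.07 and 8.65 in the Lxn-/- arrays (0.25, SE 0.18, adjusted p 0.494).

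T and natural killer cell markers had means in both directions. Of 9 listed, 8 were measured, with 3 higher and 5 lower means, and 7 were higher after a further quantile normalization. Tbx21, the transcription factor of type 1 lymphocytes, was lower without overlap (-0.27, SE 0.10, adjusted p 0.340), and Cd3e, a T cell receptor component, differed by 0.04 (SE 0.15). Their summed log2 level was 56.93 to 58.32 in WT and 56.56 to 57.97 in the Lxn-/- arrays. The genes nearest in pattern to Cxcr3 were Iqcd, Tfap2c and Slc22a12, at differences of 0.02 where the spread of Cxcr3 was 0.14.

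Cxcr4, the marrow retention receptor, had overlapping groups. It was 10.65, 10.69 and 10.73 in WT and 10.58, 11.02 and 10.96 in the Lxn-/- arrays (feature 10357472). The WT values lay within 0.08 of each other, while Lxn-/- arrays 2 and 3 were above them and array 1 below. The means were 10.69 ± 0.04 and 10.85 ± 0.24, a change of 0.16 (SE 0.12, 95% interval -0.12 to 0.44, adjusted p 0.502). It was 0.30 without Lxn-/- array 1, 0.08 without array 2, 0.33 (SE 0.12, adjusted p 0.345) with array 2 alone and 0.08 after a further quantile normalization. The nearest genes in pattern were Ctns, Zfp790 and Zbtb43, at differences of 0.02, where the spread of Cxcr4 was 0.16.

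The partners of Cxcr4 were measured too. Cxcl12, its ligand, was 6.75, 6.77 and 6.93 in WT and 6.61, 6.55 and 6.63 in the Lxn-/- arrays, a difference without overlap (-0.22, SE 0.09, adjusted p 0.340). The median of all features in the bin of level of Cxcl12 was -0.14. Ackr3, the scavenging receptor of Cxcl12, was 5.97 to 6.29 in WT and 5.98 to 6.14 in the Lxn-/- arrays (-0.07, SE 0.11).

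**Figure D3:**
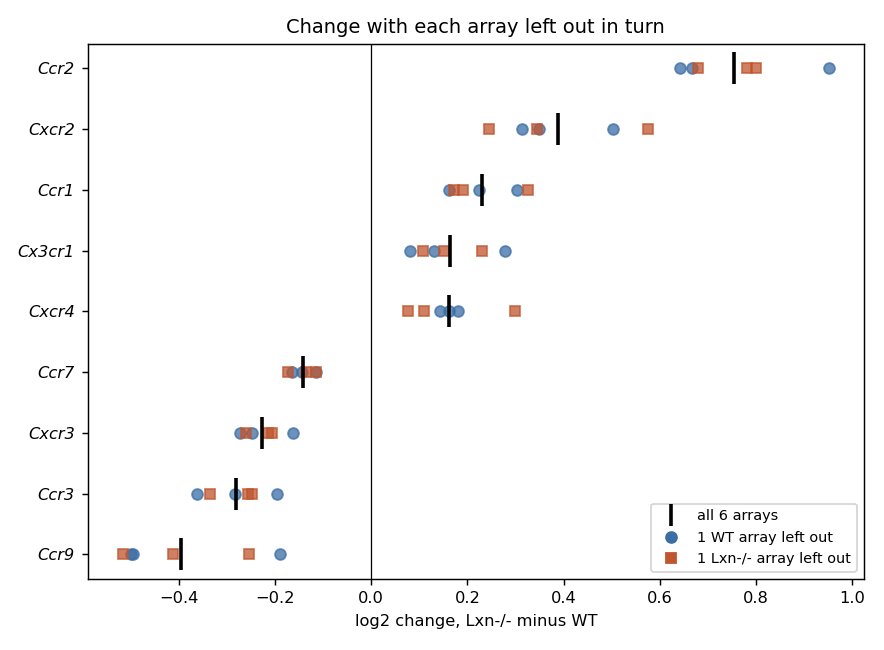
Log2 change (Lxn-/- minus WT) of each receptor gene with all 6 arrays (black bars) and with 1 WT array (blue circles) or 1 Lxn-/- array (orange squares) left out. No value crosses 0; Ccr2 runs from 0.64 to 0.95 and Ccr9 from -0.52 to -0.19, and Cx3cr1 and Cxcr4 come nearest to 0 at 0.08.

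The receptor genes are clustered in the genome, and neighbours in a cluster had changes of opposite sign. Of the 9 genes, 5 lie on chromosome 9, 2 on chromosome 1, 1 on chromosome 11 and 1 on the X chromosome. In the order of protein-coding genes, Ccr1, Ccr1l1, Ccr3 and Ccr2 follow each other directly on chromosome 9. Ccr2 had a change of 0.75 beside -0.28 in Ccr3, 0.23 in Ccr1 and -0.20 (SE 0.12) in Ccr1l1, a Ccr1-like receptor gene. Over all 14 measured chemokine receptor genes of chromosome 9, 4 means were higher and 10 lower. Near-identical stretches of the paralogs Ccr1, Ccr1l1, Ccr2 and Ccr3 could share probe signal, which was not tested.

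**Figure D4:**
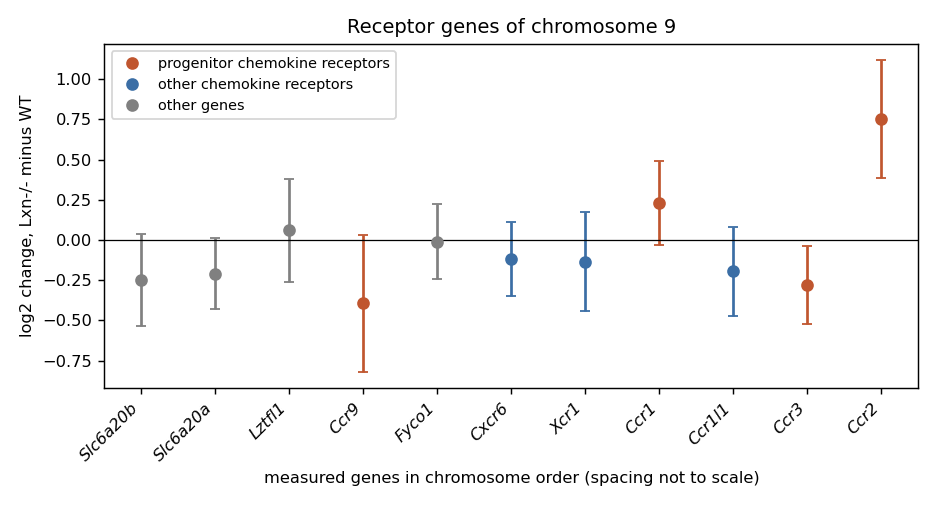
Log2 change (Lxn-/- minus WT) with its 95% limma interval for the measured protein-coding genes around the receptor cluster of chromosome 9, in chromosome order and not to scale, with the progenitor chemokine receptors in orange, other chemokine receptors in blue and other genes in grey. Ccr2 at 0.75 and Ccr3 at -0.28 are neighbours with intervals on opposite sides of 0.

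The other chemokine receptors had lower means. All 9 other conventional receptors analysed had lower means, at a median of -0.17, with 8 lower and a median of -0.05 after a further quantile normalization and 9 lower after centring. All 9 lie in the lower bins of level, where the median change of all features was -0.11 to -0.15, and 57.8% of all features had lower means, so their median lay near that background. At an unadjusted p under 0.05 there was 1, which was lower, as were 9.23% of all features at that limit. It was Cxcr5 of B cell follicles, at 5.58, 5.72 and 5.64 in WT and 5.32, 5.44 and 5.24 in the Lxn-/- arrays (-0.31, SE 0.09, adjusted p 0.340). Cxcr1, a second receptor of neutrophil chemokines, differed by -0.17 (SE 0.08) and Ccr4, of helper T cells, by -0.27 (SE 0.14). Of 5 atypical receptors, which bind chemokines without G protein signals, 4 had lower means at a median of -0.20, and 3 did, at -0.07, after a further quantile normalization. Ackr4, which takes up Ccl19 and Ccl25, had a change of -0.29 (SE 0.10, adjusted p 0.340), Ackr1 of -0.21 (SE 0.09) and Ackr2 of -0.20 (SE 0.10), while Ccrl2 was 8.27 to 8.66 in WT and 8.24 to 8.82 in the Lxn-/- arrays (0.06, SE 0.16). The difference between these lists and the 9 receptors was not tested.

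**Figure D5:**
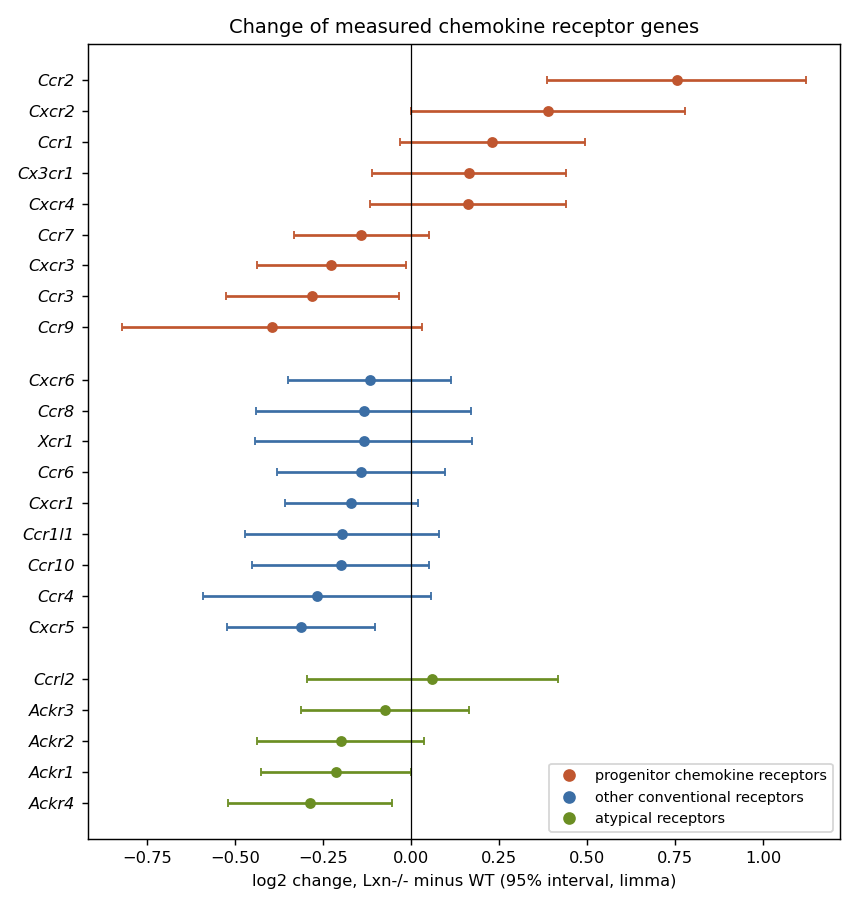
Log2 change (Lxn-/- minus WT) with its 95% limma interval for the 9 progenitor chemokine receptors (orange), the 9 other conventional receptors measured (blue) and the 5 atypical receptors (green), ordered by change within each group. Ccr2 is highest at 0.75, and all 9 other conventional receptors lie below 0.

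Of 24 chemokine ligand genes 23 were measured, 5 with higher and 18 with lower means, at a median of -0.18, and 7 and 16, at -0.11, after a further quantile normalization. The median was -0.10 without WT array 2, and the 9 ligands above the median level were 5 higher and 4 lower, at 0.01. None was higher and 7 were lower at an unadjusted p under 0.05 (limma, 0 after adjustment), beside 5.06% higher and 9.23% lower of all features. All 7 lie in bins of level where the median change of all features was -0.11 to -0.15. Beside those given above they were Ppbp, a platelet chemokine that Cxcr2 binds, at 7.23, 7.41 and 7.04 in WT and 6.84, 6.73 and 6.64 in the Lxn-/- arrays (-0.49, SE 0.11, adjusted p 0.340), and the monocyte chemoattractant Ccl8 (-0.33, SE 0.09). Megakaryocyte markers also had lower means, in 5 of 5 measured genes of 7 listed, with a summed log2 level of 40.10 to 41.50 in WT and 38.69 to 39.55 in the Lxn-/- arrays, and their part in the Ppbp difference was not tested.

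Genes that carry or end the receptor signal differed little. Of 22 signalling genes, G protein subunits and the kinases and exchange factors of cell movement among them, 21 were measured, 12 with higher and 9 with lower means, at a median of 0.02 that was -0.04 after quantile normalization and 0.07 after centring. None reached an unadjusted p under 0.05 in limma. The smallest p values were those of Cdc42, a GTPase of cell polarity (0.20, SE 0.12), Pik3r5, a regulatory subunit of the G protein-linked kinase (0.17, SE 0.11), and its catalytic partner Pik3cg (-0.18, SE 0.14). Pik3cg was 11.40, 11.41 and 11.41 in WT and 10.89, 11.39 and 11.39 in the Lxn-/- arrays, so array 1 made most of that difference. Of 15 desensitisation genes 13 were measured, 8 higher and 5 lower, with 0 at an unadjusted p under 0.05 in limma. Rgs16, which ends G protein signals, was lowest in p (-0.23, SE 0.11), followed by the receptor kinase gene Grk5 (0.19, SE 0.10) and the arrestin gene Arrb1 (-0.18, SE 0.13).

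Receptors of other attractants gave 1 higher gene and 2 lower at an unadjusted p under 0.05, among 12 measured of 15 listed, with 3 higher and 9 lower means. Over all features 5.06% were higher and 9.23% lower at that limit. S1pr3, a receptor of sphingosine 1-phosphate, was 9.17, 9.10 and 8.76 in WT and 9.46, 9.48 and 9.54 in the Lxn-/- arrays (0.48, SE 0.12, adjusted p 0.340), with no overlap. S1pr1, the receptor of the same lipid that lets cells leave tissues for blood, was 8.27, 8.64 and 8.56 in WT and 8.07, 8.00 and 8.35 in the Lxn-/- arrays (-0.35, SE 0.13), with overlap. Ptgdr2, a prostaglandin receptor of eosinophils and basophils, was lower without overlap (-0.29, SE 0.11). In the bins of level of S1pr3, S1pr1 and Ptgdr2 the median of all features was 0.09, -0.01 and -0.12.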

How the data were processed

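Each array, of the Affymetrix MoGene type, received 100 ng of RNA from 1 pool of cells, per the labels' protocols. Log2 values per feature, which the series text calls RMA values, stand in 1 table deposited by the authors, and the submitters' processing notes list Partek 6.0. The log2 scale was inferred from the values (2.93 to 14.78 over the tested features). RMA sets arrays to a common scale, so the total RNA of a cell was not measured. The tested values were still not fully alike between arrays. A further quantile normalization moved the features with an unadjusted p under 0.05 in limma from 3346 to 1812. Genome build: not given in the sources used here, nor are batches or detection calls.

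Gene names came from the array platform's annotation, brought up to date by Entrez identifier with the GRCm38.p6 gene table: 21789 features carry 1 symbol (21698 matched), 1621 several and 12147 none. The 23410 with a symbol were tested two-sided by lmFit and eBayes of limma 3.58.1, run in R 4.3.3, with Benjamini-Hochberg adjustment, after a check on simulated data. Where several features carry a gene, that with the highest mean stands for it. The receptor genes, the gene lists and the naming rule were chosen with earlier results of these data known, so no list has a test of its own. All 9 receptors are named. In each related list the genes with an unadjusted p under 0.05 are named (at most 6), or the 3 of smallest p, plus ligands and regulators of the receptors. Marker genes are named as examples after their values were seen. Promoter letters come from RefSeq, GRCm38.p6 (8 of 9 genes matched). Exact permutation of 3 against 3 arrays cannot go below a two-sided p of 0.1 and was not used. Alternatives tried: blocking on replicate number, leaving out each array, array 2 alone, quantile normalization, centring, weighted arrays, trended robust variances, every row of the table, features above the median level and the mean of a gene's features. Plots used matplotlib 3.10.9 and Python 3.11.15.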

Additional observations from a re-analysis of the deposited data

How the results depend on the processing

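Under all 15 alternative settings 0 receptor genes passed an adjusted p of 0.05, and each receptor kept its direction in every setting that gave it a value. Ccr1, Ccr3 and Cxcr3 have none among features above the median level. Blocking, trended robust variances, every row, features above the median level and the mean of a gene's features could not alter a change or its direction. The smallest adjusted p of a receptor was 0.106, for Cxcr2 with array weights, and Ccr2 ranged from 0.108 to 0.644. With the replicate number as a block, Ccr2 differed by 0.75 (SE 0.11, adjusted p 0.300) and Cxcr2 by 0.39 (SE 0.11, adjusted p 0.300), and the block passed 1 of all features. Deviations of same-numbered arrays correlated at 0.076, -0.008 and -0.006 across features, the own number being the highest for replicate 1 only. With 3 arrays a group these values cannot exclude a shared batch, which the labels do not give. The count of all features passing ranged from 0 to 145 with 1 array left out (145 without Lxn-/- array 2) and was 3 with array 2 alone. The unadjusted count of receptors was 4, beside 14.3% of all features. It ranged from 2 (6.95% without Lxn-/- array 3, 11.3% without array 2) to 5 (23.7% without array 1) with 1 array left out was 6 (24.0%) with array weights and was 5 (7.74%) after quantile normalization. It was 1 of the 6 receptors kept (11.6%) among features above the median level. Changes that rest on 1 array are given beside their gene. The cause of these shifts was not tested. With 3 arrays a group and no detection calls, low features such as Ccr1 may lie near background.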
